A study of Mus musculus with 6 samples.

Results

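The m6A RNA methylation machinery was followed through 10 genes: the writers Rbm15b, Rbm15, Mettl3, Mettl14, Wtap, Virma and Zc3h13, the readers Ythdf2 and Ythdc1, and the eraser Alkbh5. They were chosen by name out of 57010 genes in the count table, and all 10 had enough counts to be tested. Rbm15b was on the list because its own RNA differed between the groups in these libraries, so that difference is given as a description. The other 9 were added for their role in the same pathway.

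The RNA came, per the labels, from wild-type MLE-12, a mouse line of lung epithelial origin immortalised by a viral T antigen, and all libraries shared the same batch label. The I/R group, 3 libraries, stood for ischaemia and reperfusion and held cells kept for 12 h in 1% oxygen and then for 4 h in room-level oxygen. The I/R + Dex group, 3 libraries, went through the same hypoxia and reoxygenation after 12 h with 10 µM dexmedetomidine, a sedative that activates alpha-2 adrenergic receptors. Below, "without the drug" stands for I/R and "with the drug" for I/R + Dex, and every log2 ratio is I/R + Dex over I/R. Both groups were therefore reoxygenated, both came from a single cell line, and cells without hypoxia or with dexmedetomidine alone were not analysed here. The series title concerns ferroptosis and β-catenin, and the comparison below asks how RNA of the m6A machinery stood with and without the drug.

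Libraries held 2333546 to 2941989 counts, so that taking 3 counts as the floor, a gene without a count could still stand at up to 1.02 to 1.29 CPM. CPM here means counts relative to the library size, and for levels and tests that size was adjusted by the TMM method. Floors cover counting error only. Of 8 lung epithelial markers, 6 (Krt8, Krt18, Nkx2-1, Sftpa1, Sftpb and Sftpc) had 0 counts in all 6 libraries. Epcam had counts of 4, 4 and 5 without the drug and 3, 0 and 0 with it, and Cdh1 had 2 counts in all, so the epithelial label rests on the sample labels alone. The summed epithelial markers stood at 1.52 to 2.05 CPM without the drug and 0 to 1.15 CPM with it. The 4 fibroblast markers, with Vim foremost and Pdgfrb at 0 in 4 libraries, summed to 480 to 557 CPM and 450 to 617 CPM. The leukocyte markers Ptprc and Cd68 summed to 9.58 to 14.7 and 10.7 to 13.6 CPM, and the endothelial markers Pecam1 and Cdh5 to 1.53 to 2.39 and 4.94 to 7.67 CPM. The part of other cells in the results below was not tested, and in bulk RNA fewer cells of a kind and less RNA per cell cannot be told apart.

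N6-methyladenosine, or m6A, is the most common internal modification of messenger RNA. It is placed in the nucleus by a writer complex, in which METTL3 carries the catalytic site, METTL14 holds the RNA and WTAP, VIRMA, ZC3H13, CBLL1 and RBM15 or RBM15B form a regulatory part that steers the enzyme to its targets. Proteins with a YTH domain read the mark and set splicing, export and decay of the RNA, and the oxygen-dependent dioxygenases ALKBH5 and FTO remove it. In human cells ALKBH5 is known as a gene that hypoxia-inducible factors can activate. The files hold RNA levels of these genes and no measurement of methylation.

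The genes lie on 7 chromosomes. In the authors' deposited table (GRCm39), the main transcripts of the other adaptor and the catalytic pair are at 107232737 to 107240989 of chromosome 3 for Rbm15, 52532298 to 52542585 of chromosome 14 for Mettl3 and 123161946 to 123179580 of chromosome 3 for Mettl14. In the same authors' deposited table, Wtap is at 13185683 to 13211384 of chromosome 17, Virma at 11486043 to 11550684 of chromosome 4 and Zc3h13 at 75521813 to 75581866 of chromosome 14. Also by the authors' deposited table, Ythdf2 is at 131912223 to 131939614 of chromosome 4, Ythdc1 at 86952092 to 86984518 of chromosome 5 and Alkbh5 at 60428804 to 60449338 of chromosome 11.

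Rbm15b encodes an RNA-binding adaptor of the writer complex and lies, in the authors' deposited table, on the minus strand of chromosome 9 at 106758117 to 106764627 (GRCm39), as a single-exon transcript of 6511 bases. It had counts of 98, 102 and 73 in the libraries without the drug and 270, 259 and 262 in those with it. The groups stood clear of each other, with the lowest I/R + Dex library above the highest I/R library, as in 4.56% of all tested genes. On the CPM scale the level was 33.3 ± 4.78 without the drug and 108 ± 4.60 with it (n = 3 and 3, SD). The fitted log2 ratio was 1.70 (SE 0.15, 95% interval 1.34 to 2.05). Untransformed this was 3.24-fold, and it is the value by which the gene was chosen (edgeR adjusted p = 0.0299). Over all tested genes, 5 of 7412, or 0.0675%, passed this threshold in either direction and 3, or 0.0405%, were higher in I/R + Dex. In the authors' deposited table, which lists transcripts, Rbm15b-201 had a log2 ratio of 1.69 and mean FPKM of 5.10 and 16.4, and it was the single one of 21 listed transcripts of the 10 genes marked as significant there. The share of all transcripts marked there is not given here. That mark rests on the same contrast by which the gene was chosen.

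The size of the Rbm15b difference moved little with the processing, while the call did not hold throughout. Over 17 alternatives the log2 ratio lay between 1.54 and 1.78, and the adjusted p passed 0.05 in 8 of them and missed it in 9. Leaving out a single library gave a log2 ratio of 1.58 to 1.78. The edgeR adjusted p was then 0.0539 without I/R replicate 1, 0.101 without I/R replicate 2, 0.0489 without I/R replicate 3, 0.0967 without I/R + Dex replicate 1, 0.0869 without replicate 2 and 0.0790 without replicate 3 of that group.

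Little sequence elsewhere resembles Rbm15b. Its closest relative among the 10 is Rbm15, which encodes the second adaptor of the same kind. The coding sequences of Rbm15b-201 and Rbm15-201 have 2661 and 2886 bases, and the longest run that the transcripts share without a mismatch is 16 bases. No transcript of another gene matched Rbm15b at 90% identity over at least 200 bases. The pair of 60-base coding windows that are most alike, shown because they are where a read could most easily be assigned to the wrong adaptor, have 49 identical bases, printed in capitals. They were read from the GENCODE vM21 transcripts, and lie on the minus strand at chr9:106884454-106884513 and chr3:107330354-107330413 in GRCm38.
Rbm15b: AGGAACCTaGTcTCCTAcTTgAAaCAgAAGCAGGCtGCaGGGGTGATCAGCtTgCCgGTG
Rbm15: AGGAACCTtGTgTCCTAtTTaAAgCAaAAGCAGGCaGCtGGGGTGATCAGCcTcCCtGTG
The differing bases are spread over the whole window, so that no long stretch is common to both genes.

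The neighbours of Rbm15b showed other values than Rbm15b itself. On the same strand, the end of Manf-202, a transcript of Manf, which encodes a stress-induced factor of the endoplasmic reticulum, overlaps Rbm15b by 14 bases. Manf had counts of 414, 446 and 416 without the drug and 353, 584 and 325 with it, and the groups overlapped (log2 ratio 0.16, 95% interval -0.45 to 0.77). On the opposite strand, Dcaf1-203 of Dcaf1, which encodes a substrate receptor of a ubiquitin ligase, overlaps Rbm15b by 75 bases. Dcaf1 had counts of 1012, 1105 and 1011 without the drug and 1019, 773 and 911 with it, for a log2 ratio of -0.06 (95% interval -0.24 to 0.12). The sources used here do not say whether reads were counted by strand. The retained-intron transcript Manf-205, chosen after its values were seen, had counts of 85, 86 and 127 without the drug and 10, 4 and 50 with it. These are counts of a single transcript, given without a test and without the share of all transcripts whose groups stand apart.

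Rbm15 did not follow Rbm15b. It had counts of 325, 675 and 610 without the drug and 589, 510 and 523 with it. A single I/R library was low, at 123 CPM, and the others, at 231 and 234 CPM, lay just above the I/R + Dex libraries at 215 to 226 CPM. The level was 196 ± 63.0 CPM without the drug and 221 ± 5.32 CPM with it (n = 3 and 3, SD), and the fitted log2 ratio was 0.17 (95% interval -0.39 to 0.74). Without I/R replicate 1, the low library, the log2 ratio was -0.07.

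**Figure D1:**
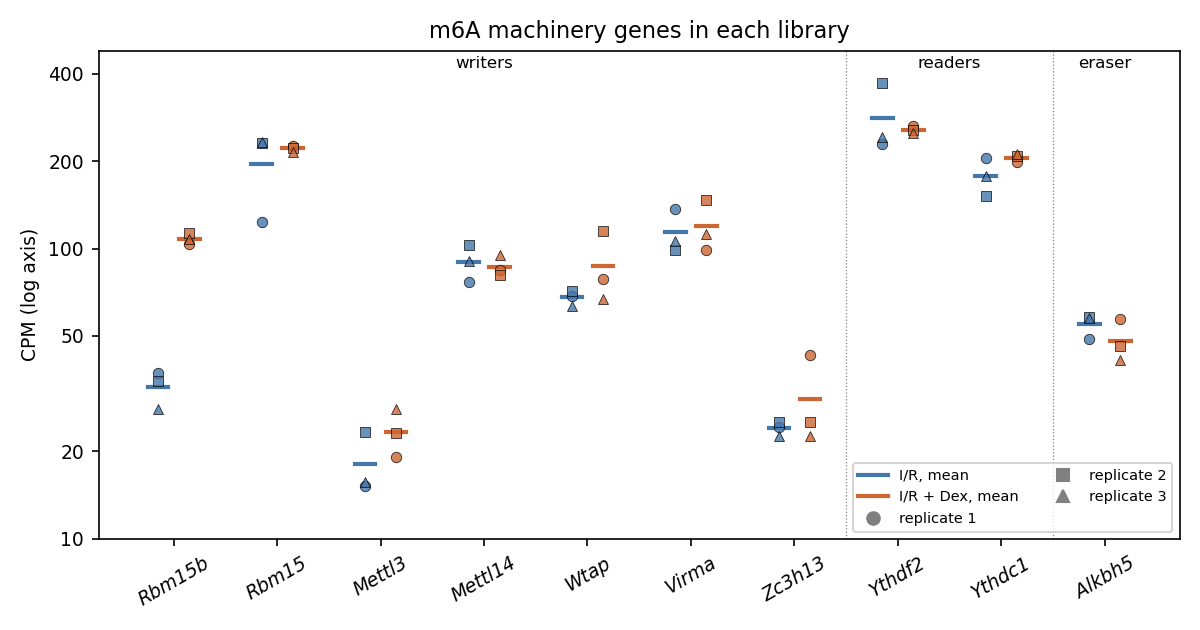
Level of each of the 10 genes in CPM (vertical axis, logarithmic) in the 3 I/R libraries (blue) and the 3 I/R + Dex libraries (orange), with bars for group means and circles, squares and triangles for replicates 1, 2 and 3. Rbm15b has clear space between its groups, from 37.1 CPM in the highest I/R library to 103.6 CPM in the lowest I/R + Dex library, while the points of each of the other 9 genes overlap.

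The catalytic pair showed no difference past the threshold. Mettl3, the methyltransferase, had counts of 40, 68 and 41 without the drug and 50, 53 and 68 with it. These are the lowest counts of the 7 writers in every I/R library, and its log2 ratio of 0.37 has a 95% interval from -0.26 to 1.01, so that a doubling lies within its reach. Mettl14, its RNA-binding partner, had counts of 202, 301 and 236 without the drug and 219, 186 and 230 with it. Its log2 ratio was -0.06 (95% interval -0.40 to 0.29), and the groups overlapped for both genes.

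The regulatory part of the complex gave overlapping groups as well. Wtap, the adaptor that keeps the enzyme pair in nuclear speckles, had counts of 181, 209 and 166 without the drug and 205, 263 and 163 with it, with I/R + Dex replicate 2 the highest of the 6 libraries. Its log2 ratio was 0.35 (95% interval -0.14 to 0.84), and 0.10 without that library. Virma, the large scaffold, had counts of 361, 288 and 278 without the drug and 258, 337 and 272 with it, for a log2 ratio of 0.07 (95% interval -0.38 to 0.51). Zc3h13, which holds the complex in the nucleus, had counts of 64, 74 and 59 without the drug and 112, 58 and 55 with it. The first I/R + Dex library stood above the other 5, and without it the log2 ratio went from 0.33 (95% interval -0.33 to 0.99) to -0.01.

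Neither the readers nor the eraser differed past the threshold. Ythdf2, the cytoplasmic reader that brings methylated RNA to the CCR4-NOT deadenylase, had counts of 604, 1084 and 634 without the drug and 688, 590 and 607 with it, with I/R replicate 2 above the other 5 libraries. Its log2 ratio was -0.13 (95% interval -0.56 to 0.31), and 0.12 without that library. Ythdc1, the nuclear reader that acts in splicing and export, had counts of 541, 444 and 465 without the drug and 517, 477 and 513 with it, for a log2 ratio of 0.21 (95% interval -0.08 to 0.49). Alkbh5, the demethylase, had counts of 129, 170 and 151 without the drug and 149, 106 and 100 with it, for a log2 ratio of -0.19 (95% interval -0.61 to 0.23).

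By count, 0 of the 9 genes other than Rbm15b passed the edgeR threshold, beside 0.0675% of all tested genes, and 0 had an unadjusted p under 0.05, beside 3.39%. DESeq2 and limma voom each called 0 of the 9, beside 0.216% and 0% respectively of the genes they tested. In 0 of the 9 did the groups stand apart in CPM, against 9.12% of all tested genes. Their log2 ratios were above 0 in 6 and below 0 in 3, with a median of 0.17, where the median of all tested genes was -0.01. All 9 intervals held 0. A doubling lay above 8 of the 9 intervals, with Mettl3 as the exception, and a halving lay below all 9. The upper end of all 9 lay below the Rbm15b estimate of 1.70, but Rbm15b was chosen for that value. The intervals do not exclude smaller changes.

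**Figure D2:**
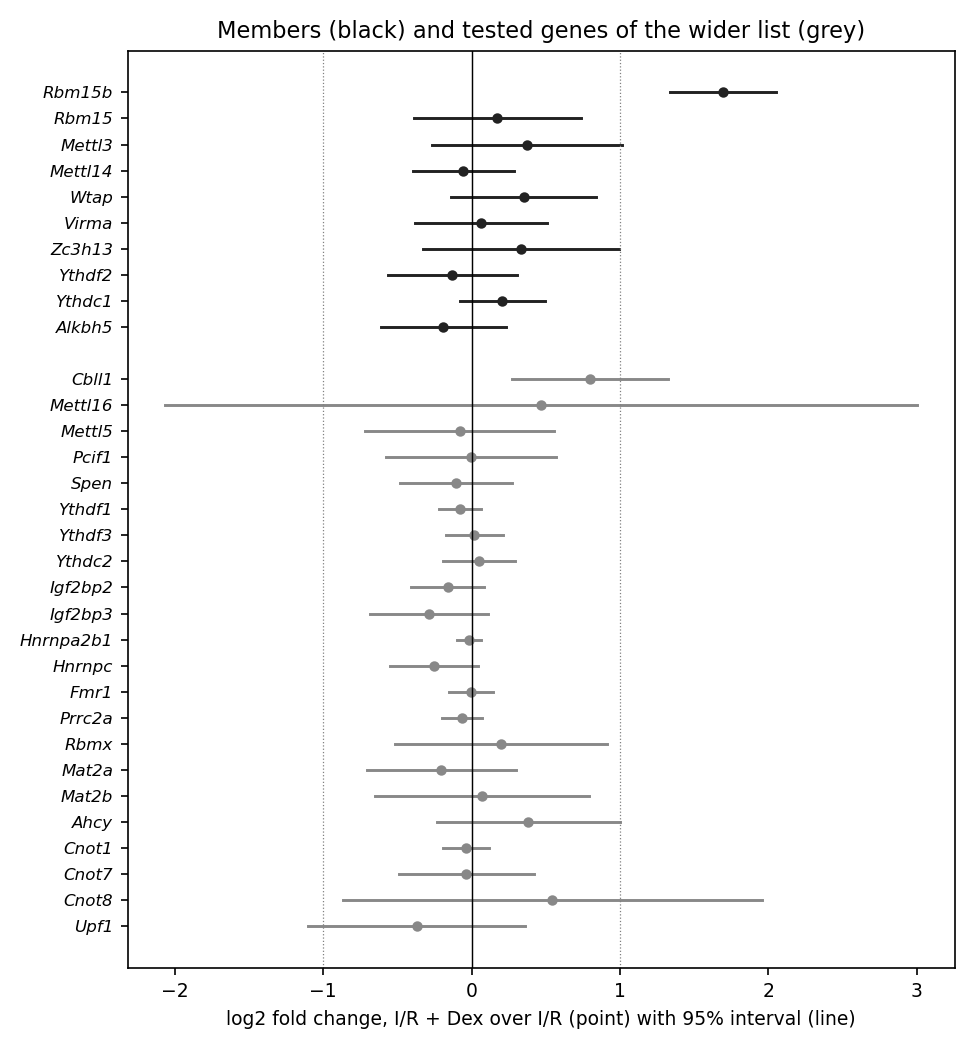
Change with the drug as log2 ratio to I/R (horizontal axis) for the 10 genes (black) and the 22 tested genes of a wider m6A list (grey), as points with 95% intervals as lines, with dotted lines at a doubling and a halving. Rbm15b at 1.70 lies right of the doubling line with its whole interval, and Cbll1 at 0.80 is the single other gene whose interval leaves out 0.

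The wider list held 27 further genes of the pathway, of which 22 had enough counts. Of these 22, 0 passed the edgeR threshold, beside 0.0675% of all tested genes. An unadjusted p under 0.05 in edgeR was found for 1 of the 22, Cbll1, beside 3.39% of all tested genes. DESeq2 and limma voom also called 0, beside 0.216% and 0% respectively of the genes they tested. The median log2 ratio was -0.03, with 8 genes above 0 and 14 below. By role, the tests covered 4 of 6 other writers, the RBM15 relative Spen, 10 of 11 other readers, 3 of 3 genes of methyl donor metabolism and 4 of 5 effectors of RNA decay. Zcchc4, Trmt112, Igf2bp1, Rida and the second eraser Fto were too low to test, and Fto had counts of 12, 4 and 7 without the drug and 5, 3 and 2 with it.

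Cbll1, also called Hakai, encodes a RING-type protein of the regulatory part of the writer complex. It had counts of 81, 86 and 128 without the drug and 163, 148 and 153 with it, and every library of the second group was above every library of the first, as for 4.56% of all tested genes. The level was 36.4 ± 11.0 CPM without the drug and 63.3 ± 0.992 CPM with it (n = 3 and 3, SD). The log2 ratio of 0.80 (95% interval 0.27 to 1.33) did not pass the edgeR threshold (unadjusted p = 0.00868, adjusted p = 1.00), and over 13 alternatives it lay between 0.67 and 1.07 with an adjusted p of 0.302 to 1.00. Mettl16, the writer of U6 RNA and of the Mat2a transcript, had counts of 44, 4 and 12 without the drug and 36, 3 and 39 with it, a spread within groups that leaves its log2 ratio of 0.47 between -2.06 and 3.00.

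The other readers included Igf2bp3, which stabilises methylated RNA, with counts of 87, 106 and 88 without the drug and 72, 69 and 65 with it. Its groups did not overlap and its log2 ratio was -0.29 (95% interval -0.68 to 0.11). Igf2bp3 and Cbll1 were the 2 genes out of 22 without overlap, where 9.12% of all tested genes had none. Hnrnpc, which binds sites opened by methylation, had a log2 ratio of -0.25 (95% interval -0.55 to 0.04), and Spen, a large relative of the RBM15 proteins, had -0.10 (95% interval -0.48 to 0.28).

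Among genes of the methyl donor, Mat2a, which makes S-adenosylmethionine, had counts of 4070, 4707 and 4243 without the drug and 2399, 3731 and 3888 with it. The first I/R + Dex library was far below the other 5 in CPM, at 921 CPM against 1542 to 1625 CPM. The log2 ratio was -0.20 (95% interval -0.71 to 0.30), and 0.02 without that library. Ahcy, which clears the product of methyl transfer, had a log2 ratio of 0.38 (95% interval -0.23 to 1.00), and 0.098 without I/R + Dex replicate 1. The decay effectors Cnot8, a deadenylase subunit, and Upf1, the helicase of nonsense-mediated decay, had 0.54 (95% interval -0.87 to 1.96) and -0.37 (95% interval -1.10 to 0.36). Without single libraries, Cnot8 ranged from 0.15 (without I/R + Dex replicate 1) to 0.90 and Upf1 from -0.63 to -0.086 (without I/R + Dex replicate 2, where it had 64 counts).

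Levels of different genes were compared per length, in the deposited FPKM (fragments scaled by gene length and library size), which used the same length for a gene in all libraries. The order depends on that length, and a second order from the summed FPKM of the transcripts of each gene, chosen after the data were seen, is given after it. In I/R, by gene FPKM, Ythdf2 led with a mean of 61.3 FPKM, followed by Rbm15 at 26.4, Virma at 15.9, Ythdc1 at 13.0, Mettl14 at 12.1, Wtap at 10.8, Alkbh5 at 9.17, Rbm15b at 5.11, Zc3h13 at 3.82 and Mettl3 at 3.55 FPKM. Neighbours from Rbm15 to Wtap overlapped in their ranges, as did Zc3h13 and Mettl3. Wtap and Alkbh5 did not overlap. Rbm15b, at 4.30 to 5.68 FPKM, lay apart from Alkbh5 above it and Zc3h13 below it.

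In I/R + Dex the mean of Rbm15b by gene FPKM was 16.7, the fourth highest instead of the eighth. Ythdf2 at 56.4 and Rbm15 at 29.9 FPKM stayed above it. Virma at 16.8 FPKM, with a range of 13.8 to 20.5, overlapped Rbm15b, whose libraries lay between 15.9 and 17.3 FPKM. Ythdc1 came next at 15.1 FPKM, then Wtap at 13.9, Mettl14 at 11.7, Alkbh5 at 8.06, Zc3h13 at 4.83 and Mettl3 at 4.63 FPKM. Ythdc1, with 15.7 FPKM in its highest library, lay just under the lowest Rbm15b library, and of the lower neighbours Ythdc1 and Wtap, Wtap and Mettl14, and Zc3h13 and Mettl3 overlapped. Mettl3, the catalytic subunit, was the lowest of the 10 by mean gene FPKM in both groups.

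By the summed transcript FPKM the order was another one below Ythdf2. Ythdf2 still led, at 67.8 FPKM without the drug and 61.7 with it, and Ythdc1 came second at 46.1 and 50.5. Mettl3 was not the lowest on this scale, at 9.08 and 16.6 FPKM, and Zc3h13 was, at 3.89 and 4.88. The Mettl3 libraries were at 7.55, 11.9 and 7.81 FPKM without the drug and 24.0, 11.7 and 14.1 with it. In the first I/R + Dex library only 12.0% of the Mettl3 counts lay on coding transcripts. Rbm15b stood at 5.10 and 16.4 FPKM, rank 9 and then 7 in place of 8 and 4. Wtap was higher on this scale, at 37.9 and 50.4 FPKM. Alkbh5 summed to 17.6, 22.5 and 21.3 FPKM without the drug and 9.89, 7.94 and 14.8 with it, where its short transcript Alkbh5-202, of 624 bases, weighs heavily.

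**Figure D3:**
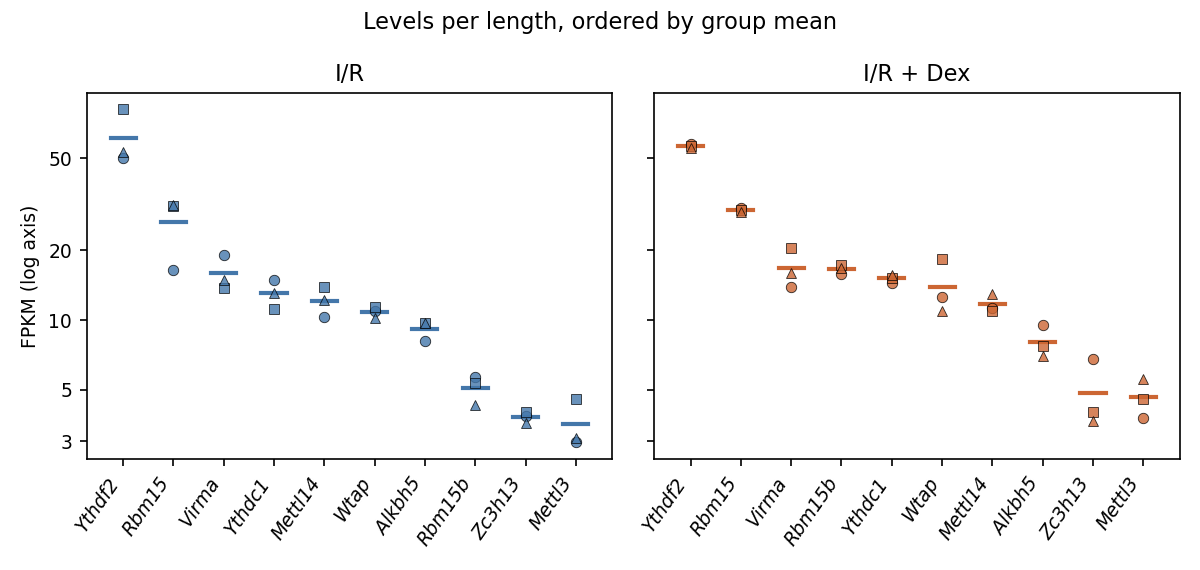
Level per length in gene FPKM (vertical axis, logarithmic) of the 10 genes, ordered from left to right by group mean in I/R (left panel) and I/R + Dex (right panel), with bars for means and circles, squares and triangles for replicates 1, 2 and 3. Rbm15b stands at 5.11 FPKM in the left panel and at 16.7 FPKM in the right panel, beside Virma.

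Between the adaptors, by gene FPKM, Rbm15b made up 25.6%, 14.7% and 12.0% of the summed FPKM of Rbm15b and Rbm15 in the I/R libraries and 34.3%, 36.7% and 36.4% in the I/R + Dex libraries. By summed transcript FPKM the share was 17.9%, 9.96% and 7.98% without the drug and 25.1%, 25.9% and 25.9% with it. Rbm15 was the more abundant adaptor RNA in all 6 libraries on both scales, with Rbm15b at 0.136 to 0.344 of its gene FPKM without the drug and 0.523 to 0.579 with it. The gene FPKM of the 7 writers summed to 69.3, 84.1 and 79.8 FPKM without the drug and 94.5, 105.5 and 95.1 FPKM with it. Without Rbm15b the sums of the other 6 were 63.6, 78.8 and 75.5 FPKM and 78.6, 88.2 and 78.3 FPKM, and then the groups overlapped. By summed transcript FPKM the other 6 came to 117 to 131 without the drug and 138 to 159 with it, without overlap, so whether these sums overlap turns with the scale used. How often sums of other genes stand apart on that scale is not given here. Mettl14 stood at 3.03 to 3.94 times the gene FPKM of Mettl3 without the drug and at 2.31 to 3.00 times with it, but at 1.28 to 1.59 and 0.494 to 0.949 times by summed transcript FPKM. The 0.494 was in I/R + Dex replicate 1, and replicates 2 and 3 were at 0.949 and 0.927. The shares and sums that include Rbm15b hold the value by which it was chosen, and all are given without a test.

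The counts came per transcript as well, and for all 10 genes the transcript counts summed to the gene count in all 6 libraries. A total of 33 transcripts of the 10 genes had a count and 18 could be tested. Of these 18, edgeR called 0 (0% of 9882 tested transcripts over the whole table) and 1 had an unadjusted p under 0.05, beside 2.92% of all. DESeq2 called 1, beside 1.38% of all. Both were Rbm15b-201, which carries all counts of its gene, so the contrast is the one that chose it. Ythdf2 and Zc3h13 also lay on a single transcript.

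Transcript usage, the share of a gene that lies on each transcript, does not use the gene total. It could be tested for Rbm15, Wtap, Virma, Ythdc1 and Alkbh5. By edgeR, 0 of these 5 passed the threshold, beside 1.57% of 1717 genes, and 0 had an unadjusted p under 0.05, beside 6.46%. Alkbh5 came lowest with an adjusted p of 0.942 in edgeR. Its coding transcript Alkbh5-201 had counts of 112, 145 and 130 without the drug and 149, 106 and 87 with it, and Alkbh5-202, without a defined coding sequence, had 17, 25 and 21 against 0, 0 and 13. A single library thus carried the counts of Alkbh5-202 in I/R + Dex, and without that library, replicate 3, the usage of Alkbh5 passed the threshold (edgeR adjusted p = 0.00718). That fit left out the only I/R + Dex library with counts of Alkbh5-202. The share of all genes that passed in it is not given here.

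Rbm15 was split between the coding Rbm15-201, with counts of 233, 456 and 433 without the drug and 395, 451 and 437 with it, and the retained-intron transcript Rbm15-202, with 92, 219 and 177 against 194, 59 and 86. The coding share was 67.6% to 71.7% without the drug and 67.1%, 88.4% and 83.6% with it, so that a single library of the second group lay with the first. Virma lay mostly on Virma-203, with counts of 336, 268 and 266 without the drug and 237, 320 and 235 with it, and Virma-201 had 12 to 25 and 17 to 37 counts.

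In Mettl3, Wtap and Ythdc1, single libraries carried counts on other transcripts than the rest, and in Wtap this was seen in both groups. In Mettl3, the coding Mettl3-201 had counts of 36, 58 and 37 without the drug and 6, 45 and 59 with it. In I/R + Dex replicate 1 the other 44 counts lay on other transcripts, foremost the retained-intron Mettl3-209 with 18 and Mettl3-203 with 14, both without a count elsewhere. The coding share of Mettl3 was 12.0% there and 84.9% to 90.2% in the other 5 libraries. In Wtap, the coding Wtap-203 had counts of 137, 136 and 152 without the drug and 160, 0 and 121 with it, and Wtap-201 had 135 counts in I/R + Dex replicate 2 and 0 elsewhere. The sum of both Wtap transcripts was 137, 136 and 152 without the drug and 160, 135 and 121 with it. For this pair, the counts of I/R + Dex replicate 2 thus lay on Wtap-201 in place of Wtap-203. The coding Wtap-204 had counts of 9, 60 and 8 without the drug and 13, 106 and 18 with it, highest in replicate 2 of both groups. The coding Wtap-207 had 29, 7 and 0 against 23, 21 and 18.

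**Figure D4:**
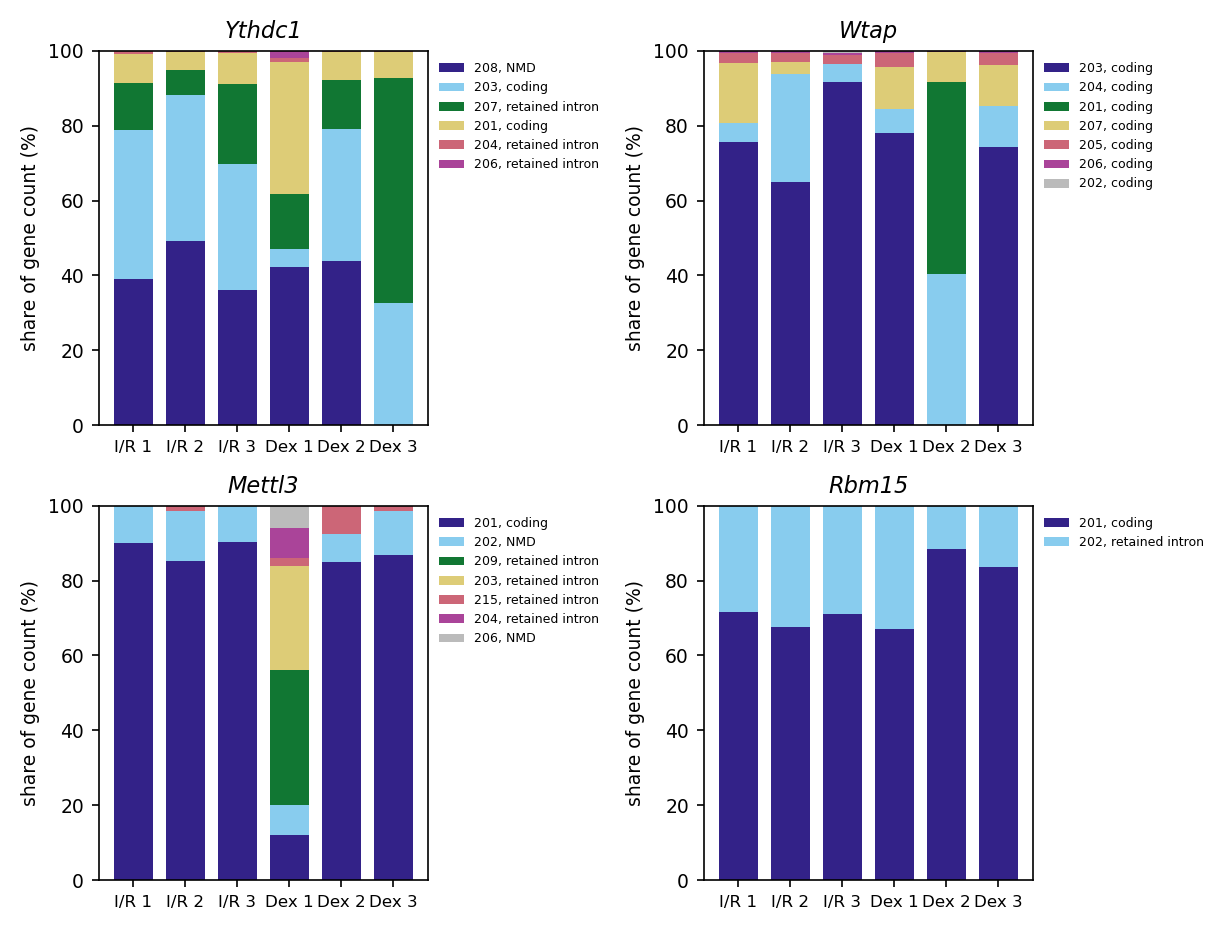
Share of the gene count on each transcript in percent (vertical axis) for Ythdc1, Wtap, Mettl3 and Rbm15 in the 3 I/R libraries and the 3 I/R + Dex libraries (marked Dex 1 to Dex 3), with colours for transcripts and their annotated kind, NMD standing for nonsense-mediated decay. Single libraries depart from the rest, as for Mettl3 in Dex 1, where the coding transcript holds 12.0%, and for Wtap in Dex 2, where Wtap-203 holds 0 counts.

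Ythdc1 was spread over 6 transcripts. The coding Ythdc1-203 had counts of 215, 173 and 157 without the drug and 24, 168 and 167 with it, and the coding Ythdc1-201 had 42, 21 and 38 against 183, 36 and 35. Their sum was 257, 194 and 195 without the drug and 207, 204 and 202 with it, without the excursion of I/R + Dex replicate 1 that each showed alone. Ythdc1-208, annotated as a target of nonsense-mediated decay, had counts of 211, 219 and 168 without the drug and 219, 209 and 0 with it, and the retained-intron Ythdc1-207 had 69, 29 and 99 against 76, 63 and 309. The sum of these 2 was 280, 248 and 267 without the drug and 295, 272 and 309 with it. Relative to library size it was 98.0 ± 12.1 CPM without the drug and 119 ± 7.24 CPM with it (n = 3 and 3, SD). The coding pair stood at 79.7 ± 16.9 and 83.6 ± 3.70 CPM, and both sums are given without a test. In Ythdc1, coding transcripts held 41.9% to 47.5% without the drug and 39.4% to 42.8% with it.

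The Ythdc1 transcripts also differ in length, at 3269 bases for Ythdc1-203, 4346 for Ythdc1-208 and 6313 for Ythdc1-207. Of the differences between them, only short coding segments are shown, picked by their length. Reads that cover or skip these segments can tell some of the transcripts apart. Each segment is printed in capitals with 20 bases of the same transcript on either side, from GENCODE vM21. The 54-base segment at chr5:86820633-86820686 (GRCm38, plus strand) is in Ythdc1-203 and Ythdc1-201 and not in Ythdc1-208, the 24-base segment at chr5:86831773-86831796 is in Ythdc1-201, Ythdc1-204 and Ythdc1-207 and not in Ythdc1-203, and the 36-base segment at chr5:86809305-86809340 is in Ythdc1-208 alone.
54-base segment: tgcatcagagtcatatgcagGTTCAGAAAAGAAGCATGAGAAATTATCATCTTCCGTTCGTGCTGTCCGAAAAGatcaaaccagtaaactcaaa
24-base segment: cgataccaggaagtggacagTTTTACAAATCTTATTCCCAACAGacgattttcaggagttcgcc
36-base segment: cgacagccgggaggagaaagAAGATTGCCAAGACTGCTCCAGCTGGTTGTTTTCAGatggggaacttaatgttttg
Any read outside these segments and the other differences between the transcripts is shared, and the sources used here do not say how shared reads were divided.

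Such single-library gaps were common in the whole table. Of 6320 transcripts with at least 20 counts in 5 or more libraries, 379, or 6.0%, had 0 counts in the sixth, with 47 to 71 of them in each library. Among the 10 genes, 14 transcripts had at least 20 counts in 5 or more libraries, and 2 of the 14 were at 0 in the sixth, Wtap-203 and Ythdc1-208.

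Near-identical copies touch Wtap and Ythdf2. The processed pseudogene Gm14292 matches Wtap at 99.3% identity over 456 bases and had counts of 473, 481 and 451 without the drug and 435, 409 and 433 with it, more than Wtap itself in every library. Of the counts of Wtap and its copies together, 70.5% lay on the copies, so the Wtap level is uncertain. With the copies added, the log2 ratio of Wtap was 0.12 (95% interval -0.10 to 0.34) in place of 0.35. Copies of Ythdf2, Gm8401 and Gm6823, held 11.3% of the joint counts, and with them added the log2 ratio of Ythdf2 was -0.12. Mettl3 shares 933 exon bases with Tox4 on the opposite strand, and Tox4 had counts of 288, 309 and 271 without the drug and 270, 238 and 290 with it, so its counts and those of Mettl3 may be mixed if strand was not used.

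Across the 6 libraries, the tested genes whose log-CPM ran most like that of Rbm15b were Ubald2, Traf4, Vps13d, Ybx3 and Cabyr, with Pearson's r from 0.975 to 0.992. Since Rbm15b falls into 2 separate levels by group, this likeness is largely a difference between groups, and it is a description of 6 libraries. Their log2 ratios ranged from 0.27 for Traf4, with counts of 295 to 349 without the drug and 317 to 371 with it, to 4.57 for Ubald2, with 7 to 15 and 160 to 260 counts. Among the other 9 genes of the machinery, the likeness to Rbm15b ranged from an r of 0.66 for Ythdc1 and 0.63 for Mettl3 to -0.58 for Alkbh5.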

How the data were processed

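Poly(A)-enriched RNA of 6 libraries was sequenced in 2 groups of 3, grouped and numbered by their labels, which call the replicates of a group independent. The deposited gene and transcript counts are whole numbers, as their values show, and were taken as unscaled. The deposited FPKM and the authors' deposited table of log2 fold changes, p-values and adjusted p-values are the authors' own values, per the file headers. Per the submitters' processing notes, the tools were StringTie 2.2.4, HISAT2 2.1.0 and DESeq2 1.30, on GRCm39. The sources used here do not say how strand and multiply matching reads were handled, or with which annotation.

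The 10 genes, the wider list and the tests were chosen with earlier results of these data known. All 10 genes were named, and of the wider list those past the threshold and up to 2 per role with the lowest p, together with the 5 genes most like Rbm15b, its neighbours, and near-identical copies. Tests on counts used edgeR 4.0.16, run in R 4.3.3 (filterByExpr, TMM, robust quasi-likelihood test, Benjamini-Hochberg adjustment over all tested genes or transcripts, threshold 0.05), and usage with diffSpliceDGE. The scripts were tested on simulated data. Standard errors came from the F statistic. Log-CPM used a prior count of 2. Copies were found with blastn 2.17.0 among GENCODE vM21 transcripts, which have the lengths of all 21 listed transcripts. That annotation is on GRCm38 and gave the overlaps between genes and the printed sequences with their coordinates. Alternatives were other scaling factors, filters, DESeq2 1.42.0, limma 3.58.1 (voom, or trend on log2(FPKM + 1) or log2(FPKM + 0.1)), copies added, a replicate block and leaving out each library. Summing the deposited transcript FPKM per gene was added after the data were seen.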

Additional observations from a re-analysis of the deposited data

How the results depend on the processing

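The count of 1 of the 10 genes past the threshold, Rbm15b, was 0 with limma voom (adjusted p of Rbm15b 0.0508), with log2(FPKM + 0.1) (0.0578), with log2(FPKM + 1) and no filter (0.0641) and with the replicate block in edgeR (0.411), and 0 to 1 with single libraries left out. The lowest adjusted p was 1.98e-13, in DESeq2. Same-numbered libraries of the groups showed no visible shared deviation (correlations 0.023, -0.0096 and -0.0042). These correlations cannot decide whether the numbers pair libraries, since a small shared deviation could be hidden by the spread between libraries. The log2 ratio of Rbm15b with the block was 1.70. With the block, 0 transcripts and 0 usage tests of the 10 genes and 0 genes of the wider list passed. The count of transcripts past the threshold was 0, and 1 with DESeq2, and that of usage tests was 0, and 0 to 1 with single libraries left out. The wider list had 0 calls in all 13 alternatives.

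Genes without a call changed sign in 8 of 270 values, all with a library left out. Over these, the log2 ratio ranged from -0.066 to 0.32 for Rbm15, -0.15 to 0.052 for Mettl14, -0.11 to 0.22 for Virma, -0.0070 to 0.51 for Zc3h13, -0.25 to 0.12 for Ythdf2, -0.34 to 0.018 for Mat2a and -0.029 to 1.81 for Mettl16. The cause was not tested. Fto was too low to test. The order of the genes by level per length depends on whether gene FPKM or summed transcript FPKM, added after the data were seen, is used.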
